A study of Oryza sativa Japonica Group with 8 samples.

Results

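The genes examined here are those described as kinases among the transcripts that differed between young panicles of wild type rice and of a line with reduced expression of OsDCL3b. They were chosen by description: the word kinase had to be present and the words transposon and F-box absent. The rule found 42 genes of the 1174 that the authors listed as changed, and 40 of the 42 are protein kinases. The other two, a hexokinase and a diacylglycerol kinase, phosphorylate a sugar and a lipid. By their descriptions 24 genes are receptor-like kinases, 2 belong to the calcium/calmodulin-dependent (CAMK) class, 2 to the MAP kinase cascade and 12 to other protein kinase classes.

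The plants were Oryza sativa Japonica rice grown in a paddy field, and the tissue was the young panicle, the flowering branch, taken before heading. Messenger RNA was sequenced from 3 libraries of wild type and 3 of the dcl3b knockdown, and small RNA from 1 library of each genotype. OsDCL3b is a Dicer-like enzyme, a type that slices paired RNA strands into small interfering RNAs (siRNAs). The sources used here do not give how the knockdown was made, how many lines were used or whether each library was made from plants of its own. The p-values therefore reflect the spread of these libraries alone, and part or all of it may be technical.

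Protein kinases pass on signals by transferring phosphate to other proteins. Receptor-like kinases span the plasma membrane and carry an outer domain that senses peptides, sugars or cell wall fragments, and they form a very large family in plants with roles in immunity and development. Inside the cell, MAP kinase cascades and calcium-dependent kinases relay such signals. In the rice anther the receptor kinase MSP1 limits the number of cells that enter meiosis. Protein and gene sequences of the 42 loci were not used here.

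Levels are in FPKM, reads scaled by gene length and library depth, and how deeply the mRNA libraries were sequenced is unknown. The knocked-down gene itself, LOC_Os10g34430, was at 0.97, 0.98 and 0.88 FPKM in wild type against 0.39, 0.50 and 0.44 FPKM in the knockdown. Of 13 genes of the tapetum and pollen wall, the anther tissue that nourishes pollen, 10 were listed, all as lower, and 3 were not listed. The summed level of the 10 was between 1806 and 2048 FPKM in wild type and between 537 and 1174 FPKM in the knockdown, highest in knockdown replicate 2, and none was at 0 in any library. The part of this difference in the kinase results was not tested, and in whole panicles fewer cells of a type and less RNA per cell cannot be told apart.

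The first question was in which direction kinase transcripts differed. In the knockdown 26 of the 42 genes were listed as higher and 16 as lower, or 61.9% and 38.1%, against 54.9% and 45.1% of all 1174 listed genes. By class, 19 receptor-like kinases were higher and 5 lower, whereas both MAP kinase cascade genes and both non-protein kinases were lower. The CAMK class had 1 gene in each direction and the other protein kinases 6 in each. Every gene entered the tables by passing the authors' limits, a log2 fold change no smaller than 1 in size and an adjusted p no greater than 0.05, so these counts describe the lists and were not tested.

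Most kinase transcripts were scarce. Those listed as higher had a median of 0.175 FPKM in wild type and 0.517 FPKM in the knockdown, while all 644 genes listed as higher had medians of 0.108 and 0.952 FPKM. Among the higher kinase genes 8 of 26 reached a mean of 1 FPKM in either genotype, against 321 of the 644. A mean under 0.2 FPKM over the 6 libraries was found in 9 of the 26, against 165 of the 644. Kinase genes listed as lower started from a median of 0.725 FPKM and were at 0.233 FPKM in the knockdown, below the 1.83 and 0.703 FPKM of all 530 genes listed as lower. Of these kinase genes 5 of 16 reached a mean of 1 FPKM in either genotype, against 329 of the 530. A mean under 0.2 FPKM was found in 3 of the 16, against 61 of the 530. A single gene (3.85% of 26) had 0 FPKM throughout wild type, against 20.7% of all genes listed as higher.

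Fold changes were moderate. By the authors' deposited table the median log2 fold change was 1.98 over the 26 higher kinase genes and 2.57 over all genes listed as higher, and it was -1.38 over the 16 lower kinase genes and -1.44 over all genes listed as lower. A log2 fold change of 2 or more in size was given to 13 of the 26 (50.0%, against a background of 61.5%) and to 4 of the 16 (25%, against 17.0%). An adjusted p of at most 0.01 was given to 13 of the 26 (background 73.6%) and to 7 of the 16 (43.8%, background 61.9%). Closest to the limit on fold change were LOC_Os07g31250 at -1.0, LOC_Os06g44410 at -1.01 and LOC_Os07g29330 at 1.02 in the authors' deposited table. Genes just outside the limits were not analysed here.

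**Figure D1:**
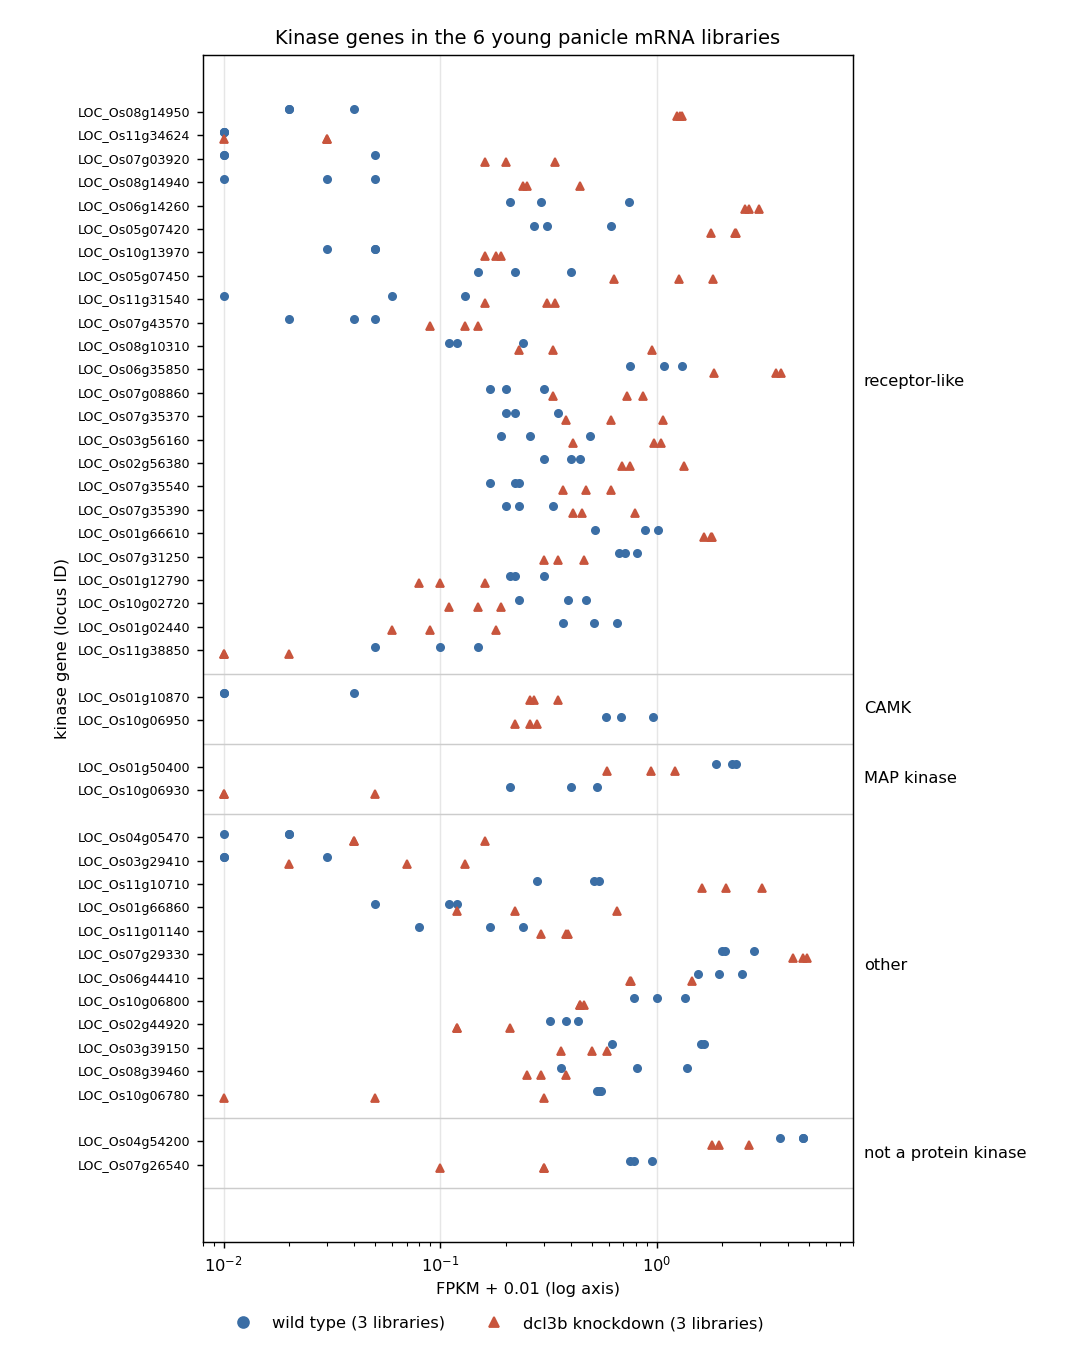
Level of each of the 42 kinase genes in the 6 mRNA libraries (horizontal log axis, FPKM + 0.01), grouped by class, with circles for wild type and triangles for the dcl3b knockdown. Most points lie under 1 FPKM, the higher genes are mostly receptor-like, and in 6 genes the genotypes overlap.

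The libraries of each genotype were then compared gene by gene. In 21 of the 26 higher genes all 3 knockdown values lay above all 3 wild type values, or 80.8%, against 84.6% of all genes listed as higher. In 15 of the 16 lower genes, 93.8%, every knockdown value was under every wild type value, against 89.1% of all genes listed as lower. These shares are near the background and are no result about kinases. Knockdown replicate 1 was the highest of its genotype in 16 of the 26 higher genes (61.5%), including 13 of the 19 receptor-like ones, and it was so in 40.4% of all genes listed as higher. Knockdown replicate 2 was the lowest in 14 of the 26 and, among the 16 lower genes, the highest in 9, against 60.1% and 67.2% of all listed genes of each direction. With replicate 2 of both genotypes left out, a setting added after the values were seen, the groups did not overlap in 24 of the 26 and 16 of the 16, against 97.2% and 99.4% of all listed genes of each direction.

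**Figure D2:**
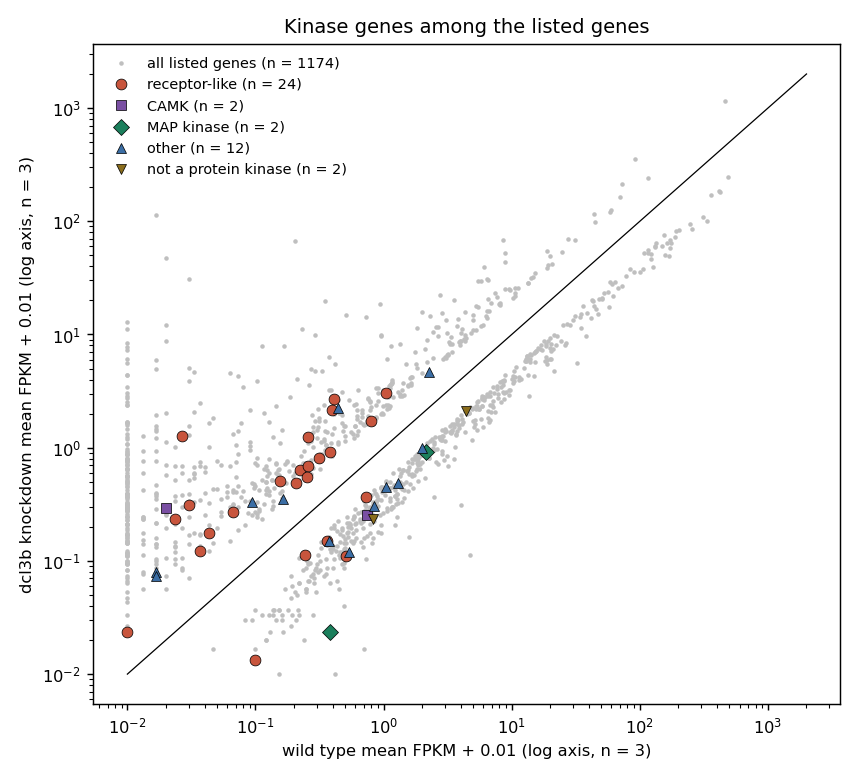
Mean level in the dcl3b knockdown against mean level in wild type for all 1174 listed genes (grey) and for the 42 kinase genes by class (coloured), both on log axes of FPKM + 0.01, each mean over 3 libraries, with a line of equal levels. The empty band along the line is where genes under the authors' fold limit would lie, and the kinase genes reach means of at most 4.36 FPKM in wild type and 4.62 FPKM in the knockdown.

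Among receptor-like kinases, those described as lectin or lectin-like kinases were all higher in the authors' table. Lectin domains resemble sugar-binding proteins, and kinases of this family take part in plant immunity. LOC_Os06g14260 was at 0.73, 0.28 and 0.20 FPKM in wild type against 2.53, 2.64 and 2.93 FPKM in the knockdown. The groups were far apart (authors' deposited table, log2 fold change 2.77, adjusted p = 1.38e-13). LOC_Os06g35850 was at 1.07, 1.30 and 0.74 FPKM against 3.71, 1.82 and 3.51 FPKM, where knockdown replicate 2 lay nearest to wild type (the authors' deposited table, log2 fold change 1.53). The scarce LOC_Os07g03920, a lectin-like receptor kinase 7, was at 0.04 FPKM in wild type replicate 1, at 0 in the other two, and at 0.19, 0.33 and 0.15 FPKM in the knockdown. A further gene of that description, LOC_Os03g56160, overlapped between genotypes: its knockdown replicate 2 at 0.40 FPKM lay below wild type replicate 2 at 0.48 FPKM.

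The S-domain kinases, named after the receptor that governs self-incompatibility in Brassica, numbered 3 and were all higher. LOC_Os05g07420 rose from 0.26, 0.60 and 0.30 FPKM to 2.31, 1.77 and 2.29 FPKM, and the authors' deposited table put the log2 fold change at 2.42 (adjusted p = 3.57e-13). LOC_Os05g07450, 30 further in locus number on chromosome 5, rose from 0.14, 0.39 and 0.21 FPKM to 1.80, 0.62 and 1.25 FPKM. In both genes wild type replicate 2 was the highest of wild type and knockdown replicate 2 the lowest of the knockdown, and the genotypes did not overlap. LOC_Os07g08860 was lower in level, with 0.213 ± 0.0681 FPKM in wild type and 0.630 ± 0.276 FPKM in the knockdown (SD, n = 3 each).

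The DUF26 kinases are described by homology to loci with DUF26, a cysteine-rich outer domain, and whether these genes carry it was not examined. Relatives in Arabidopsis respond to pathogens and oxidative stress. Of 6 genes, 5 were higher and 1 lower, and none reached a mean of 1 FPKM in either genotype. Among the higher ones 3 lie on chromosome 7 between locus numbers 35370 and 35540. LOC_Os07g35370 was at 0.34, 0.21 and 0.19 FPKM against 1.06, 0.37 and 0.60 FPKM. LOC_Os07g35390 was at 0.32, 0.22 and 0.19 FPKM against 0.78, 0.44 and 0.40 FPKM. LOC_Os07g35540 was at 0.21, 0.22 and 0.16 FPKM against 0.60, 0.36 and 0.46 FPKM. In each of these genes the lowest knockdown value lay above the highest wild type value and knockdown replicate 1 was the highest library. Neighbouring copies of a family can share reads, and the sources used here do not give how such reads were counted.

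At the floor of the scale stood LOC_Os07g43570, at 0.0267 ± 0.0153 against 0.113 ± 0.0306 FPKM (SD, n = 3 each), and LOC_Os11g34624. The latter had 0 FPKM throughout wild type, compared with 0.02, 0.02 and 0 FPKM in the knockdown. With values deposited to 2 decimals, the difference rests on the last digit, although the authors' deposited table gave it an adjusted p of 0.0355. The DUF26 gene listed as lower, LOC_Os11g38850, was at 0.09, 0.04 and 0.14 FPKM in wild type, while knockdown replicate 2 was at 0.01 FPKM and the other two were at 0.

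The OsWAK genes, whose relatives in Arabidopsis bind pectin of the cell wall, went both ways. OsWAK21 (LOC_Os02g56380) was at 0.39, 0.29 and 0.43 FPKM in wild type against 1.32, 0.68 and 0.74 FPKM in the knockdown. OsWAK69 (LOC_Os07g31250) was at 0.66, 0.70 and 0.80 FPKM against 0.34, 0.45 and 0.29 FPKM. OsWAK99 (LOC_Os10g02720) was at 0.38, 0.22 and 0.46 FPKM against 0.18, 0.10 and 0.14 FPKM. The genotypes did not overlap in any of the 3. The files describe OsWAK21 and OsWAK69 as cytoplasmic forms, which lack the outer domain, and OsWAK99 as a receptor-like form.

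Of the 8 remaining receptor-like kinases 6 were higher and 2 lower. LOC_Os08g14950, described as a receptor-like protein kinase 2 precursor, had the largest log2 fold change of all 42 genes in the authors' deposited table, 5.88 (adjusted p = 2.23e-36). It was nearly silent in wild type, at 0.03, 0.01 and 0.01 FPKM, and stood at 1.22, 1.26 and 1.30 FPKM in the knockdown, where its libraries agreed closely. The next locus number, LOC_Os08g14940, also a receptor kinase, was at 0.02, 0.04 and 0 FPKM in wild type against 0.43, 0.24 and 0.23 FPKM in the knockdown (the authors' deposited table, log2 fold change 3.79).

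LOC_Os01g66610, a serine/threonine kinase receptor, was better expressed. It was at 1.0, 0.87 and 0.51 FPKM against 1.78, 1.77 and 1.63 FPKM, clear of overlap. LOC_Os11g31540 is described as BRASSINOSTEROID INSENSITIVE 1-associated receptor kinase 1, in Arabidopsis a co-receptor for the steroid hormone brassinosteroid and for immune receptors. Its mean was 0.0567 ± 0.0603 FPKM in wild type and 0.260 ± 0.0964 FPKM in the knockdown (SD, n = 3 each). LOC_Os10g13970 was at 0.0333 ± 0.0115 against 0.167 ± 0.0153 FPKM (SD, n = 3 each), with close replicates in both genotypes. In LOC_Os08g10310, of the SHR5 type, the genotypes overlapped: it was at 0.10, 0.23 and 0.11 FPKM against 0.94, 0.22 and 0.32 FPKM, and knockdown replicate 1 alone stood far above the rest.

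Of the receptor-like kinases listed as lower, LOC_Os01g02440 had the smallest adjusted p. This Ser/Thr receptor-like kinase fell from 0.36, 0.64 and 0.50 FPKM to 0.08, 0.05 and 0.17 FPKM (the authors' deposited table, log2 fold change -2.38, adjusted p = 6.22e-05). Its neighbour by locus number, LOC_Os01g02430, described as TAK14 and so outside the naming rule, fell from 2.44 ± 0.582 to 0.353 ± 0.0416 FPKM (SD, n = 3 each); it was picked out after its values were seen. LOC_Os01g12790, a receptor protein kinase, was at 0.29, 0.21 and 0.20 FPKM against 0.09, 0.15 and 0.07 FPKM.

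Calcium-linked kinases were represented by a gene in each direction. LOC_Os01g10870 belongs to the KIN1/SNF1/Nim1-like group, related to the yeast energy sensor SNF1. It was at 0.03 FPKM in wild type replicate 2, at 0 in the other wild type libraries, and at 0.25, 0.26 and 0.34 FPKM in the knockdown. The authors' deposited table put its log2 fold change at 4.28 (adjusted p = 9.44e-05). LOC_Os10g06950, described as calcium-dependent protein kinase 12, a class that binds calcium directly, fell from 0.95, 0.57 and 0.67 FPKM to 0.27, 0.25 and 0.21 FPKM (the authors' deposited table, log2 fold change -1.56, adjusted p = 0.0120).

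Both genes of the MAP kinase cascade fell, and their genotypes did not overlap. LOC_Os10g06930, described as mitogen-activated protein kinase 15, the last tier of the cascade, was at 0.52, 0.39 and 0.20 FPKM in wild type. In the knockdown it was at 0.04 FPKM in replicate 2 and at 0 in the other two, which made it the deepest fall among the 42 genes (the authors' deposited table, log2 fold change -4.23, adjusted p = 0.00142). LOC_Os01g50400, described as MAP3K.5, a kinase of the first tier, was at 2.21, 1.87 and 2.30 FPKM against 1.20, 0.93 and 0.58 FPKM (the authors' deposited table, log2 fold change -1.20, adjusted p = 0.00205).

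Of the other protein kinases the most abundant was LOC_Os07g29330, described as CTR1, in Arabidopsis a repressor of ethylene signalling. It rose from 1.98, 2.78 and 2.04 FPKM to 4.70, 4.23 and 4.93 FPKM, with close replicates (the authors' deposited table, log2 fold change 1.02, adjusted p = 5.08e-09). LOC_Os11g10710, a protein kinase domain gene, rose from 0.50, 0.53 and 0.27 FPKM to 3.03, 1.60 and 2.06 FPKM (the authors' deposited table, log2 fold change 2.35, adjusted p = 5.43e-14). LOC_Os11g01140, an AGC class kinase (the class of protein kinases A, G and C), was at 0.16, 0.23 and 0.07 FPKM against 0.37, 0.28 and 0.38 FPKM.

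The remaining higher genes of this class were near the floor and uneven. LOC_Os04g05470 was at 0.03 and 0.03 FPKM in knockdown replicates 1 and 2 and at 0.15 FPKM in replicate 3, with at most 0.01 FPKM in wild type. LOC_Os03g29410, with a tyrosine kinase domain, was at 0.12, 0.06 and 0.01 FPKM in the knockdown and at 0, 0 and 0.02 FPKM in wild type. LOC_Os01g66860, a serine/threonine kinase, was at 0.64, 0.11 and 0.21 FPKM in the knockdown and at 0.10, 0.11 and 0.04 FPKM in wild type. The genotypes overlapped in LOC_Os03g29410 and met at 0.11 FPKM in LOC_Os01g66860.

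On the lower side LOC_Os06g44410 is a histidine kinase, a type that in plants includes the cytokinin receptors. It was at 2.45, 1.53 and 1.93 FPKM against 0.75, 1.44 and 0.74 FPKM, and knockdown replicate 2 came close to wild type replicate 2. LOC_Os10g06800, described as cyclin-dependent kinase G-2, of the family that works with cyclins in the cell cycle and in transcription, was at 0.77, 1.33 and 0.99 FPKM against 0.43, 0.45 and 0.43 FPKM. LOC_Os10g06780, a protein kinase domain gene, was even in wild type, at 0.54, 0.53 and 0.52 FPKM, and uneven in the knockdown, at 0.04, 0.29 and 0 FPKM.

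Of 2 further protein kinase domain genes, LOC_Os03g39150 was at 0.61, 1.64 and 1.59 FPKM against 0.58, 0.49 and 0.35 FPKM, so that wild type replicate 1 lay just above the knockdown. LOC_Os02g44920 was at 0.367 ± 0.0551 against 0.140 ± 0.0520 FPKM (SD, n = 3 each). In LOC_Os08g39460, an AGC class kinase, the genotypes overlapped, with 1.36, 0.35 and 0.80 FPKM in wild type against 0.24, 0.37 and 0.28 FPKM.

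The genes that are not protein kinases both fell without overlap. LOC_Os04g54200, a diacylglycerol kinase, which turns a membrane lipid into the messenger phosphatidic acid, had the highest wild type level of the 42 genes. It was at 4.71, 3.69 and 4.68 FPKM against 1.93, 2.65 and 1.78 FPKM (the authors' deposited table, log2 fold change -1.03, adjusted p = 2.60e-06). LOC_Os07g26540, a hexokinase, the first enzyme of glucose use and in Arabidopsis also a sugar sensor, was at 0.74, 0.94 and 0.77 FPKM against 0.09, 0.29 and 0.29 FPKM (the authors' deposited table, log2 fold change -1.90, adjusted p = 0.000262).

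Several of these genes lie close together in locus number. Of the 42, 24 (57.1%) had another listed gene within 100 in locus number on the same chromosome, and 18 (42.9%) had a listed neighbour of the same direction, against 42.9% and 30.2% of all listed genes. On chromosome 10, 4 kinase genes between locus numbers 6780 and 6950 were all lower, with descriptions that name a cyclin-dependent, a mitogen-activated and a calcium-dependent kinase and, for LOC_Os10g06780, no type. The undescribed gene beside them, LOC_Os10g06770, was at 0.84, 0.71 and 0.42 FPKM against 0.04, 0.37 and 0 FPKM; in the knockdown, as in LOC_Os10g06780, replicate 2 was the highest and replicate 3 at 0. On chromosome 7 the DUF26 genes were interleaved with glucan endo-1,3-beta-glucosidase genes that were also listed as higher; of these LOC_Os07g35480 rose from 5.49 ± 0.985 to 29.9 ± 5.31 FPKM (SD, n = 3 each). Chromosome 7 held the most kinase genes, 7 higher and 2 lower, and chromosome 10 held 1 higher and 5 lower. These groups were noticed after the values were seen and were not tested.

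**Figure D3:**
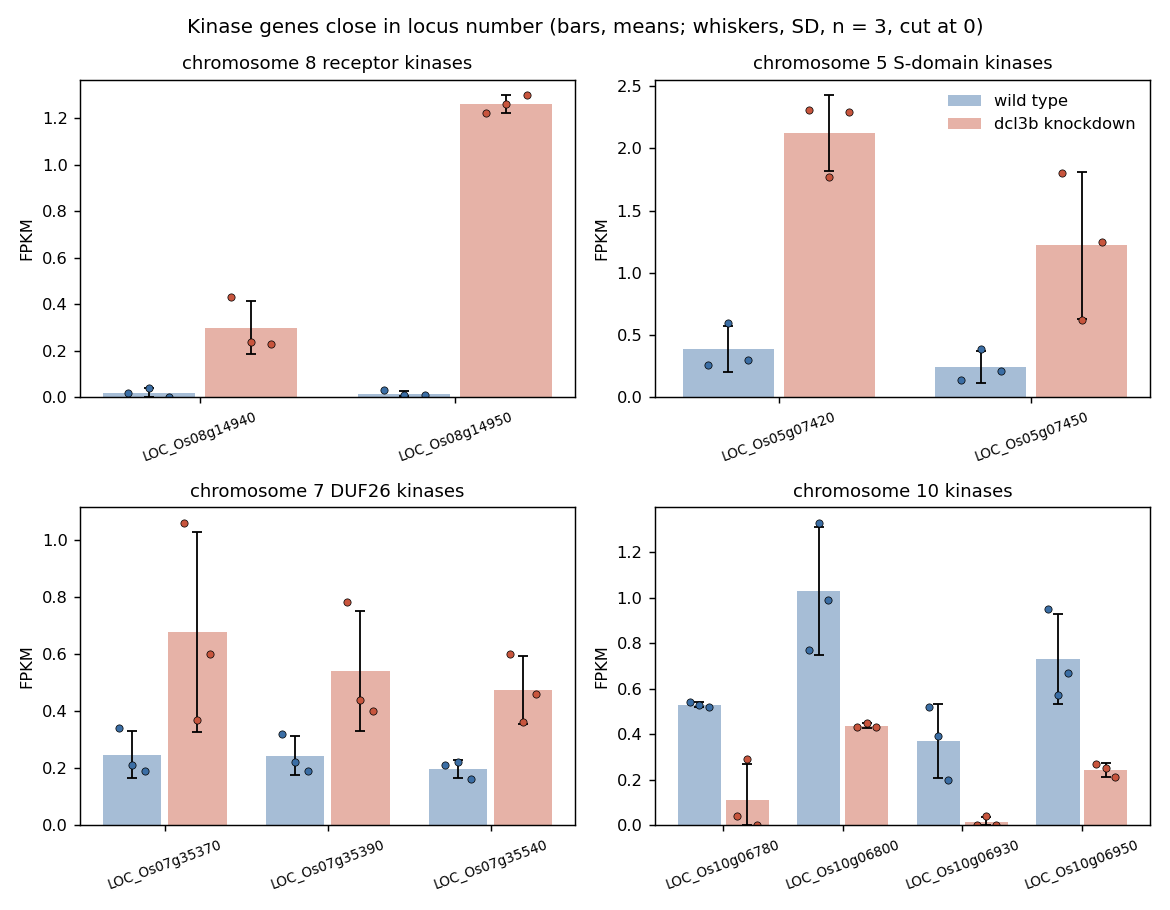
Level in FPKM of kinase genes close in locus number, in 4 panels, with bars for the mean of 3 libraries, whiskers for the SD (cut at 0) and points for the libraries. The genes on chromosomes 8, 5 and 7 were higher and those on chromosome 10 lower in the dcl3b knockdown. The genotypes did not overlap in any of the 11 genes shown, which were picked after their values were seen. Over all listed genes they did not overlap in 84.6% of the higher and 89.1% of the lower ones.

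As a check on how far the calls depend on single libraries, all 1174 listed genes were tested again with limma on log2(FPKM + 0.5), and p-values were adjusted over the listed genes by the Benjamini-Hochberg method. Of the kinase genes 33 of 42 (78.6%) passed an adjusted p of 0.05, against 84.9% of all listed genes. They were 19 of the 26 higher genes (73.1%, background 80.0%) and 14 of the 16 lower genes (87.5%, background 90.9%). The genes had been chosen on the same values, so passing adds no support. The 9 that did not pass were the 6 with overlapping genotypes and LOC_Os04g05470, LOC_Os07g43570 and LOC_Os11g38850. The smallest adjusted p in this limma test was that of LOC_Os08g14950, with a log2 change of 1.77 ± 0.08 (SE) on this scale, which understates the change of low genes (adjusted p = 4.42e-05). Without wild type replicate 3 the counts were 9 of 26 and 9 of 16, against 51.2% and 56.4% of all genes listed as higher and lower. Without wild type replicate 1 they were 11 and 10 (backgrounds 53.0% and 62.1%). Without knockdown replicate 1 they were 13 and 9 (55.7% and 55.5%) and without knockdown replicate 3 they were 13 and 10 (56.1% and 56.2%). In these settings the calls of all listed genes dropped too. Leaving out wild type replicate 2 gave 17 and 13 (69.9% and 85.3%), and leaving out knockdown replicate 2 gave 20 and 12 (87.6% and 87.5%). Of the 33 genes that passed, 16 kept the call whichever single library was left out, among them LOC_Os08g14950, LOC_Os05g07420, LOC_Os01g02440, LOC_Os10g06930 and LOC_Os07g29330. The other 17 lost it at least once. LOC_Os06g35850 did so without knockdown replicate 1 or 3, and LOC_Os07g03920 and LOC_Os07g35540 without wild type replicate 3. LOC_Os10g06780 did so without knockdown replicate 1, and LOC_Os02g44920 and LOC_Os10g13970 without wild type replicate 1 or 3. The call of OsWAK21 was lost whichever wild type library was left out, and that of LOC_Os05g07450 without wild type replicate 1 or 3 or knockdown replicate 3. In LOC_Os06g44410, LOC_Os07g08860, LOC_Os11g01140 and LOC_Os11g31540 it was lost in 4 of the 6 cases, and in LOC_Os01g12790, LOC_Os03g39150, LOC_Os07g35370, LOC_Os07g35390 and OsWAK99 in 5.

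Partners of kinases in signalling were looked up by description. Protein phosphatases, which remove the phosphate, numbered 1 higher and 2 lower. The higher one, LOC_Os11g34710, was at 0.01 FPKM in wild type replicate 1, at 0 in the other two, and at 0.96, 0.18 and 0.61 FPKM in the knockdown. The protein phosphatase 2C gene LOC_Os04g42260 overlapped between genotypes, at 3.52, 2.30 and 4.45 FPKM against 0.85, 2.53 and 0.82 FPKM. Calcium sensor genes numbered 2 higher and 1 lower. Among them the calmodulin-related OsCML31 (LOC_Os01g72530) was at 1.40, 0.56 and 1.17 FPKM against 2.97, 1.47 and 4.14 FPKM.

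Leucine-rich repeat and receptor proteins without a kinase in the description numbered 5 higher and 4 lower. Genes whose description held NBS, NB-ARC or disease resistance were left out of this list. The match by words also took in proteins that need not be partners of kinases. The lower genes included the F-box proteins OsFBL18, OsFBL47 and OsFBLD3, and the higher ones a gene described as gibberellin receptor GID1L2. LOC_Os04g08370, a leucine-rich repeat gene on the higher side, was at 0 throughout wild type and reached 0.24, 0.29 and 0.28 FPKM in the knockdown. Both WRKY transcription factor genes, of a family often placed downstream of MAP kinases, were lower: WRKY19 (LOC_Os05g49620) went from 0.97, 0.72 and 0.77 FPKM to 0.21, 0.16 and 0.08 FPKM. WRKY17 (LOC_Os01g74140) overlapped between genotypes, at 0.93, 0.67 and 1.75 FPKM in wild type compared with 0.27, 0.72 and 0.29 FPKM. No listed gene was described as a peptide ligand of receptor kinases or as a 14-3-3 protein, the class that binds phosphorylated proteins, and genes outside the lists were not analysed here.

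The last question was whether siRNA windows that differed between genotypes lay in kinase genes. The small RNA files list 124 windows of 500 bases, of which 100 lie in genes, in reads per 10000000 library reads (RPTM). The library totals that the values correspond to are 8037518 reads in wild type and 7358373 in the knockdown. Windows in kinase genes numbered 7, all of the 24-nt class, which is linked to silencing of DNA repeats. With 1 library per genotype there was no replicate check and no test, and the intervals given are exact 95% binomial intervals that cover counting error only. The windows had been listed for a difference between these same libraries, so the intervals give no independent bound on a gain or loss. None of the 42 kinase genes with a changed transcript held a listed window, and none of the 7 window genes was in the lists of changed transcripts. The same share over all listed genes is not given here. With only 100 windows in genes, the lack of shared genes describes the lists and is no result about kinases.

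Lower siRNA signal in the knockdown was listed in 5 of the 7 windows, as in 87 of all 113 24-nt windows. The deepest loss was in LOC_Os05g14750, an AGC class kinase (chr5:8377000-8377499), in a window shared with a gene described only as an expressed protein. Its signal was 112 RPTM (90 reads) in wild type and 5.44 RPTM (4 reads) in the knockdown, a ratio of 0.0486 (0.0129 to 0.129). LOC_Os02g29070, a protein kinase domain gene (chr2:17217500-17217999), had 109 against 13 reads, a ratio of 0.130 (0.0672 to 0.232). LOC_Os02g57080, a serine/threonine kinase gene (chr2:34953000-34953499), had 95 against 12 reads, a ratio of 0.138 (0.0689 to 0.252). These windows held fewer reads in the knockdown than in wild type, a difference for which they had been listed.

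Windows shared with a gene described as a transposon protein were those of LOC_Os02g13510, a receptor-like protein kinase 5 precursor (chr2:7219500-7219999), and LOC_Os06g38100, an S-locus-like receptor kinase (chr6:22534500-22534999). They had 75 against 7 reads and 79 against 8 reads. Gains were listed in 2 receptor-like kinase genes. LOC_Os03g48890, a leucine-rich repeat receptor kinase (chr3:27843000-27843499), had 5 reads in wild type and 70 in the knockdown, a ratio of 15.3 (6.25 to 48.6). OsWAK76 (LOC_Os08g39240, chr8:24786000-24786499) had 13 against 65 reads, a ratio of 5.46 (2.98 to 10.8). Positions are as the authors' files give them; the sources used here name no genome build.

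**Figure D4:**
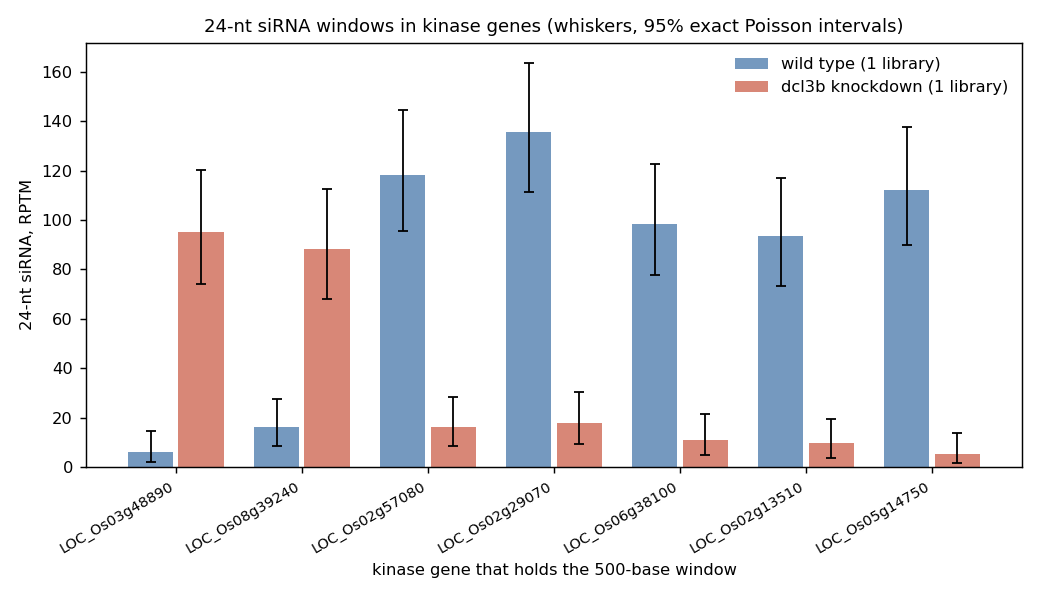
Signal of 24-nt siRNA in RPTM in the 7 listed windows that lie in kinase genes, with a bar for the single library of each genotype and whiskers for exact 95% Poisson intervals. The knockdown bar is the higher one in LOC_Os03g48890 and LOC_Os08g39240 and the lower one in the other 5 genes.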

How the data were processed

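Per the file headers, the authors deposited FPKM of each mRNA library (2 decimals), for the 1174 genes they called changed, with the log2 fold change, p-value and FDR of their comparison of knockdown with wild type, and, for 500-base windows, small RNA signal in RPTM with a fold ratio, which was not used. Per the submitters' processing notes, the tools were Bowtie 1.1.2, TopHat2 2.1.0 and edgeR, with no step named for each; the sources used here give no build, annotation or filters. The base of the fold change was checked against FPKM: over 369 genes above 1 FPKM the 2 differed by at most 0.0326.

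Kinase genes, classes and lists were chosen with earlier results of these data known. Classes were matched to the description before its dash. Short ligand and sensor names were matched as whole words or word starts, since CLE also occurs inside nuclear. Genes named in full were all of a class of at most 6, and in larger classes the 5 with the largest change in each direction and the 4 most abundant (31 genes); the others were added for completeness. The reference gene table held 0 of the 42 locus IDs.

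For the re-test, limma 3.58.1 (R 4.3.3) was fitted to log2(FPKM + 0.5) of all listed genes. Tested on simulated data of 1174 genes, 200 of them changed, it recovered 74% of changes of 1 and 88% of changes of 2 on the log2 scale and called 1.33% of unchanged genes. The simulated noise was independent between libraries and shuffled across genes, all changes were upward, and none was smaller than 1. In the data every gene had been chosen as changed, so these rates need not hold there. Alternatives were a replicate block, other pseudocounts (0.1 and 1), a filter on the lowest 25% of genes, leaving out each library, and stricter limits on the authors' values. Reads per window were recovered as multiples of 1.24 and 1.36 RPTM, to within 0.01 RPTM for all 121 and 100 nonzero values; RPTM was taken as reads per 10000000. Summaries were made in Python 3.11.15 with pandas 2.3.3 and SciPy 1.17.1.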

Additional observations from a re-analysis of the deposited data

How the results depend on the processing

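The counts past the re-test, 19 higher and 14 lower, went to 21 and 16 with a pseudocount of 0.1 (of all listed genes, 93.3%) and to 17 and 13 with a pseudocount of 1 (80.2%). With a library left out they ranged from 9 to 20 and from 9 to 13, and the share of all listed genes from 53.6% to 87.6%. Without both replicates 2 the counts were 18 and 14 (83.9%). With the lowest 25% of listed genes left out, 15 of the higher and 11 of the lower kinase genes remained. Of these 13 and 10 passed, against 92.2% of the 879 listed genes kept. The deviations of same-numbered libraries correlated at -0.04, -0.53 and -0.43. They come from genes listed for a genotype difference, so whether replicate numbers pair the libraries cannot be decided from them. With a replicate block the counts were 10 and 10 (53.7% of all listed genes), and 7 of the 25 passing genes named by the rule lost the call. Genotypes did not overlap in 21 to 24 of the higher and 15 to 16 of the lower genes with a library left out, against 84.9% to 96.7% and 89.1% to 99.2% of all listed genes. The median log2 ratio of mean FPKM + 0.5, 0.62 for higher and -0.74 for lower genes, was 1.18 and -1.11 with a pseudocount of 0.1, 0.37 and -0.47 with a pseudocount of 1, and 0.49 to 0.72 and -0.77 to -0.61 with a library left out, and 0.73 and -0.76 without both replicates 2. An adjusted p of at most 0.01 in the authors' deposited table left 13 higher and 7 lower genes, and a log2 fold change of 2 or more in size left 13 and 4. For the window and target values no alternative was run. Depth of the mRNA libraries is unknown, and many levels are a few steps above the 0.01 FPKM of the last decimal.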
